A study of Mus musculus with 10 samples.

Results

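The genes described here are 48 genes of cell division and DNA replication, out of 40481 gene IDs counted by RNA sequencing in dorsal root ganglia of mice, which hold the cell bodies of the sensory neurons that serve skin, muscle and viscera. They were taken from the count table by gene symbol, with 1 Ensembl ID for each, and fall into 29 mitosis genes, 13 replication genes and 6 genes that control the entry into replication. The samples were total RNA of ganglia from C57BL/6 mice, 5 libraries after oxaliplatin at 10 mg/kg, with a treatment of 8 weeks by the design text, and 5 libraries after vehicle. Oxaliplatin is a platinum drug against colorectal cancer that injures sensory nerves. The labels give neither the age of the mice nor a schedule of doses, and do not say whether a library is 1 animal or a pool. They number the libraries without saying that each is a separate animal, so the tests measure the spread between these samples. Libraries held 52963470 to 60984426 counts. Summed levels of 12 sensory neuron markers were 18800 to 21700 CPM (counts scaled to library size) after oxaliplatin and 20900 to 23800 after vehicle. All 48 genes had enough counts to be tested.

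A dividing cell first copies its DNA and then separates the copies. In G1 phase cyclin E and the E2F factors switch on replication genes, the origin factors Cdc6 and Cdt1 load the ring-shaped Mcm helicase, and Pcna clamps the polymerase to DNA while ribonucleotide reductase, thymidine kinase and thymidylate synthase supply nucleotides. In G2 phase and mitosis another wave of genes supplies Cdk1 with its cyclins, the Aurora and Polo kinases, the spindle checkpoint and the machinery of anaphase and cytokinesis. Mature sensory neurons have left the cell cycle for good, while satellite glia, Schwann cells, endothelial cells and immune cells of a ganglion can still divide. Platinum drugs crosslink DNA, and p53, through the inhibitor p21 and the DREAM repressor complex, shuts down genes whose promoters hold a CHR element or E2F sites.

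The promoters of the mitosis and replication genes differ in sequence, and 8 of them are shown because the 5 called mitosis genes with an entry, 1 mitosis gene that was not higher and a pair of replication genes show the contrast. RefSeq promoter windows of 300 bases, from 250 before to 50 after a start site on GRCm38.p6, were found for 42 of the 48 genes. No entry was found for Aurkb, Ccna2, Tpx2, Foxm1, Ccne2 and Mcm4. Motifs were searched on both strands: the CHR as TTTGAA or TTCGAA, the CCAAT box, bound by NF-Y, as CCAAT, and the E2F motif in 4 spellings, with TTCCCGC, then TTGGCGC, then TTCGCGC and then TTGCCGC searched. Capitals mark the matches, which on the opposite strand read as the reverse complement, such as ATTGG for CCAAT or TTCAAA for TTTGAA.
Cdc20, chr4:118437294-118437593, minus strand: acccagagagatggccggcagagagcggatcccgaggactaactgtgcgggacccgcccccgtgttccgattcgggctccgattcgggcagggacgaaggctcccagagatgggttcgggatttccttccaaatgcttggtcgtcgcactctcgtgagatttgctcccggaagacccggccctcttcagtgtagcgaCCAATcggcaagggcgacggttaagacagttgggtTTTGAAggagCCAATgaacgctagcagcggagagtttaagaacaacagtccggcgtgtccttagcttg
Bub1b, chr2:118597961-118598260, plus strand: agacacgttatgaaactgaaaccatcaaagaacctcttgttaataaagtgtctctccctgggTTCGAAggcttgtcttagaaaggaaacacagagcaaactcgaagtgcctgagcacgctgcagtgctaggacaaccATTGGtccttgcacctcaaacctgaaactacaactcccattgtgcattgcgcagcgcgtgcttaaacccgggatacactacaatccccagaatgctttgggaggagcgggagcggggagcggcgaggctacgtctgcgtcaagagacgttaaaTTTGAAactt
Ckap2, chr8:22185770-22186069, minus strand: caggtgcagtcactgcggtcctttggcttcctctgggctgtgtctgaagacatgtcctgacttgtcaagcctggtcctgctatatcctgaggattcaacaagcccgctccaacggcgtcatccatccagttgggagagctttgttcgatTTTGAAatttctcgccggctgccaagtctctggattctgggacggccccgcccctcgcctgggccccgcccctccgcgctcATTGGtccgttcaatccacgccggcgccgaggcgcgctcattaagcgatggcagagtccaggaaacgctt
Arhgap19, chr19:41802035-41802334, minus strand: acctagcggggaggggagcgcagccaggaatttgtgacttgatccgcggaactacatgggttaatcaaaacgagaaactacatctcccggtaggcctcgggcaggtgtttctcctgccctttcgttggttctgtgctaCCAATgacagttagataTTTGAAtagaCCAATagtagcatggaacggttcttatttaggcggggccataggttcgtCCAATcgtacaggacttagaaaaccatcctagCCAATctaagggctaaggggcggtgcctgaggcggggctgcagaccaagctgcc
Top2a, chr11:99024140-99024439, minus strand: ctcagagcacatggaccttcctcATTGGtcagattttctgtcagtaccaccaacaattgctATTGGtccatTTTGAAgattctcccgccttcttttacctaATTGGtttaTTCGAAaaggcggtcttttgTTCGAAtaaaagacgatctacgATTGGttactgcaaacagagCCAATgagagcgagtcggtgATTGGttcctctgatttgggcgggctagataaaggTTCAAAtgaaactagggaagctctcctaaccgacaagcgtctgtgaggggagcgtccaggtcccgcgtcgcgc
Aurka, chr2:172370521-172370820, minus strand: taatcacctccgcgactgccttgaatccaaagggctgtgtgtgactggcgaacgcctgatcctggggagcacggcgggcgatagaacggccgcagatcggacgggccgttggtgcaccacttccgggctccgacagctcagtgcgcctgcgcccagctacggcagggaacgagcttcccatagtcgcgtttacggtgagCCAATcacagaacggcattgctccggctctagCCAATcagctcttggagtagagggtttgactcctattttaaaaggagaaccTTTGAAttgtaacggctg
Mcm3, chr1:20820263-20820562, minus strand: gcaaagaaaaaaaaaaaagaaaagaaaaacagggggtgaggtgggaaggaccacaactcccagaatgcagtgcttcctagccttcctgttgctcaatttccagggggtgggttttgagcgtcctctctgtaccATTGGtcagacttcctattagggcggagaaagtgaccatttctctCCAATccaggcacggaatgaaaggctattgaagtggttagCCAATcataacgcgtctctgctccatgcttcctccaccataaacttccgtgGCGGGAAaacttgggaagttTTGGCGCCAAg
Mcm6, chr1:128359656-128359955, minus strand: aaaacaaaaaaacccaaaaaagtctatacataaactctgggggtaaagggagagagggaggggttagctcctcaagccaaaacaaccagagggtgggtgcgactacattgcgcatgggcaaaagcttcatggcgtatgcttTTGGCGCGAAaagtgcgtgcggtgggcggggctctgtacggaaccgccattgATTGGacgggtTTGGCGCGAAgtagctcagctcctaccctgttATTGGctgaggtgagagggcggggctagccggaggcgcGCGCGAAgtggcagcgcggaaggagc

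Of 28 windows of mitosis genes 82.1% held a CHR match and 78.6% both a CHR and a CCAAT match, where 19.2% and 7.52% of all 32851 windows did. Among 13 windows of replication genes 15.4% held a CHR match and 69.2% an E2F match, against 9.57% of all windows. CCAAT matches were common to both, in 85.7% of mitosis, 69.2% of replication and 37.4% of all windows. Among the replication genes Mcm2 and Mcm7 held a CHR match, and Mcm2, Pcna, Tk1 and Tyms held no E2F match. The pair shown, Mcm3 and Mcm6, held 3 and 5 E2F matches counted on both strands, and in each window some of these matches share bases. E2F matches stood in 17.9% of mitosis windows. An E2F and a CCAAT match can share bases, and counting only E2F matches clear of CCAAT left 7.14% of mitosis windows, 69.2% of replication windows and 9.21% of all. CHR and CCAAT matches occurred together in 5 of 5 called mitosis genes with a window. They occurred together in 10 of 15 that lay above 0 without a call and in 5 of 6 that lay below 0, among them Aurka. A match here is a string of letters and not a measured binding site, and the 2 windows each of Ect2 and Prc1 overlap.

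**Figure D1:**
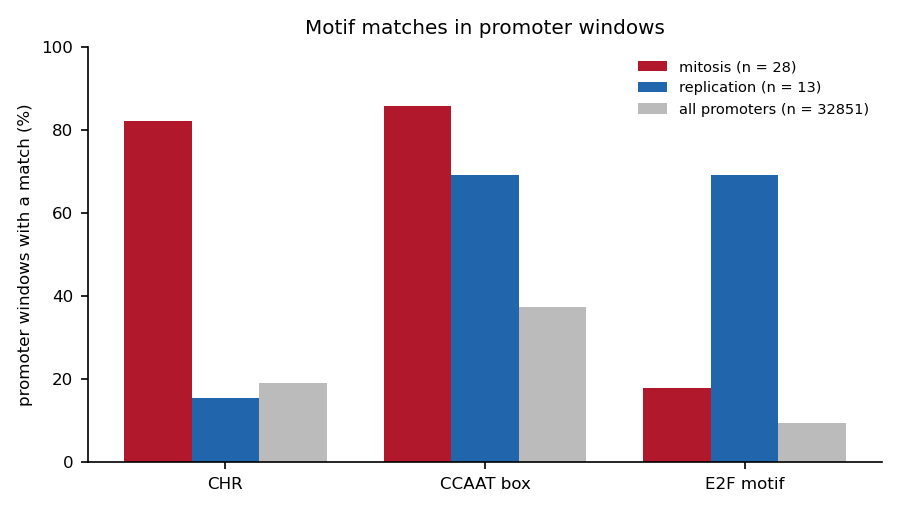
Share of promoter windows (percent, vertical axis) with a match to the CHR, the CCAAT box or the E2F motif in mitosis genes, replication genes and all promoters. CHR matches stood in 82.1% of mitosis and 15.4% of replication windows, E2F matches in 17.9% and 69.2% and CCAAT matches in 85.7% and 69.2%.

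Some mitosis genes rose after oxaliplatin and no replication gene was called. Of the 29 mitosis genes 6 rose: the kinase gene Aurkb, the checkpoint gene Bub1b, the anaphase activator Cdc20, the spindle gene Ckap2, the cytokinesis gene Arhgap19 and the topoisomerase gene Top2a. That is 20.7% of them, and 1.27% of all 18401 tested genes were called higher (adjusted p below 0.05 in the quasi-likelihood test of edgeR). None of the 48 genes was called lower by edgeR, DESeq2 or limma voom, where 0.772% of all genes were by edgeR. At an unadjusted p below 0.05, 15 of the 48 were higher and 2 lower, against 8.51% and 7.8% of all genes. The median log2 fold change was 0.55 over the mitosis genes, 0.10 over the replication genes, 0.04 over the G1/S control genes and 0.01 over all tested genes. Above 0 lay 23 of 29 mitosis genes and 9 of 13 replication genes, and 51% of all genes.

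**Figure D2:**
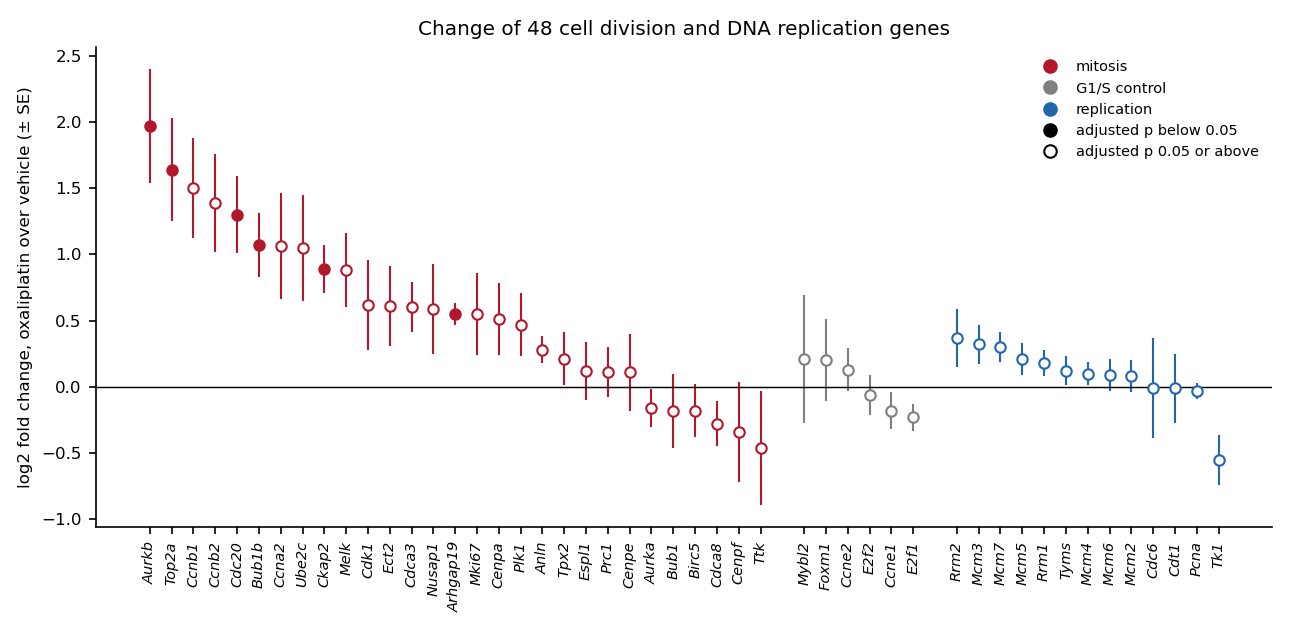
Log2 fold change of each gene (vertical axis, oxaliplatin over vehicle, ± SE), sorted within the mitosis, G1/S control and replication genes, with filled points for adjusted p below 0.05. The 6 filled points are all mitosis genes, from 0.55 (Arhgap19) to 1.97 (Aurkb), and the replication genes lie between -0.55 and 0.37.

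The count of 6 changed when single libraries were left out. It was 2 without oxaliplatin replicate 3, 1 without oxaliplatin replicate 4 or 5, 3 without vehicle replicate 1 and 2 without vehicle replicate 4. Calls over all genes fell in the same fits, from 234 higher to 177, 79, 80, 117 and 82. Of the 6, only Arhgap19 kept its call in all 10 fits that left out a library. Ckap2 kept it in 7 (not without oxaliplatin replicate 4 or 5 or vehicle replicate 4), and Top2a in 2 (without oxaliplatin replicate 1 or 2). Aurkb, Cdc20 and Bub1b kept it in 5 each, all losing it without oxaliplatin replicate 3, 4 or 5. In addition Aurkb lost it without vehicle replicate 3 or 4, Cdc20 without vehicle replicate 1 or 4 and Bub1b without vehicle replicate 1 or 3. Adjusted p reached at most 0.102 in these edgeR fits. The median of the mitosis genes stayed between 0.48 and 0.63 in those fits. Over all genes, 234 were higher and 142 lower, and 303 and 99 without a composition factor, which left the 6 called genes the same.

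Among the mitotic kinases and checkpoint genes, 2 of 8 rose. Aurkb (ENSMUSG00000020897), the catalytic part of the chromosomal passenger complex, stood at 0.508, 0.513, 1.92, 1.34 and 1.32 CPM in oxaliplatin replicates 1 to 5 and at 0.416, 0.299, 0.268, 0.102 and 0.335 CPM in vehicle replicates 1 to 5. Every oxaliplatin library was above every vehicle library, by little in replicates 1 and 2. It rose 3.93-fold (log2 fold change 1.97 ± 0.43 SE, edgeR adjusted p = 0.026). The counts behind this were small, with 28 to 112 reads in an oxaliplatin library and 6 to 23 in a vehicle library. Groups without overlap on the higher side were found for 6 of the 29 mitosis genes (Aurkb, Melk, Cdc20, Cdca3, Ckap2 and Arhgap19) and for 2.25% of all tested genes, and on the lower side for 0 of the 48 and 1.77% of all.

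Bub1b (ENSMUSG00000040084) codes for BubR1, which holds back anaphase until chromosomes are attached. It stood at 2.29, 4.00, 3.85, 4.38 and 4.86 CPM in oxaliplatin replicates 1 to 5 and at 1.28, 2, 1.18, 2.5 and 2.27 CPM in the vehicle replicates. Only oxaliplatin replicate 1 lay within the vehicle range. The rise was 2.10-fold (1.07 ± 0.24, edgeR adjusted p = 0.0293). Melk, a kinase gene of proliferating cells, was at 1.44 ± 0.343 CPM after oxaliplatin and 0.779 ± 0.274 CPM after vehicle (mean ± SD, n = 5 and 5), without overlap and without a call (0.88 ± 0.28, edgeR adjusted p = 0.122).

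The other kinase genes were not called and did not share a direction. Plk1, the Polo kinase of mitotic entry, was at 0.47 ± 0.24 (log2 fold change ± SE, edgeR adjusted p = 0.355). Cdk1, the kinase that drives mitosis, was at 0.62 ± 0.34, with 1.46 ± 0.684 CPM after oxaliplatin and 0.949 ± 0.396 CPM after vehicle. Aurka, the Aurora kinase of the spindle poles, was at -0.16 ± 0.14, Bub1 at -0.18 ± 0.28 and the checkpoint kinase Ttk at -0.46 ± 0.43. Ttk was highest in vehicle replicate 5, at 1.36 CPM.

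The 3 cyclin genes of G2 phase and mitosis lay above 0 by more than a factor of 2 each, none past the threshold. Ccnb1 (ENSMUSG00000041431), the main mitotic cyclin, stood at 0.435, 0.718, 1.69, 1.45 and 0.651 CPM in oxaliplatin replicates 1 to 5 and at 0.289, 0.449, 0.358, 0.408 and 0.242 CPM in the vehicle replicates. This is a difference of 1.5 ± 0.38 on the log2 scale (edgeR adjusted p = 0.0552), and DESeq2 called it (adjusted p = 0.00995). Ccnb2 (ENSMUSG00000032218) stood at 0.708, 1.23, 1.45, 1.18 and 2.04 CPM after oxaliplatin and at 0.271, 0.262, 0.984, 0.595 and 0.391 CPM after vehicle. For both cyclins 4 of 5 oxaliplatin libraries were above all vehicle libraries, and replicate 1 was the exception. Ccnb2 was at 1.39 ± 0.37 (edgeR adjusted p = 0.0662, and 0.0131 in DESeq2). Ccna2, the cyclin of S and G2 phase, was at 1.06 ± 0.40 (edgeR adjusted p = 0.187), at 0.254 CPM in oxaliplatin replicate 1 and 0.547 to 0.598 CPM in the other oxaliplatin libraries. Exons of Ccna2 overlap those of Exosc9 by 428 bases on the opposite strand, and Exosc9 was far higher, at 43.8 CPM after oxaliplatin and 44.5 CPM after vehicle (-0.02 ± 0.07). Reads of Exosc9 counted for Ccna2 were not tested. A pseudogene, Ccnb2-ps, was counted in the same table at 0.842 CPM after oxaliplatin and 0.601 CPM after vehicle (0.48 ± 0.36), and whether reads were split between it and Ccnb2 was not tested.

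**Figure D3:**
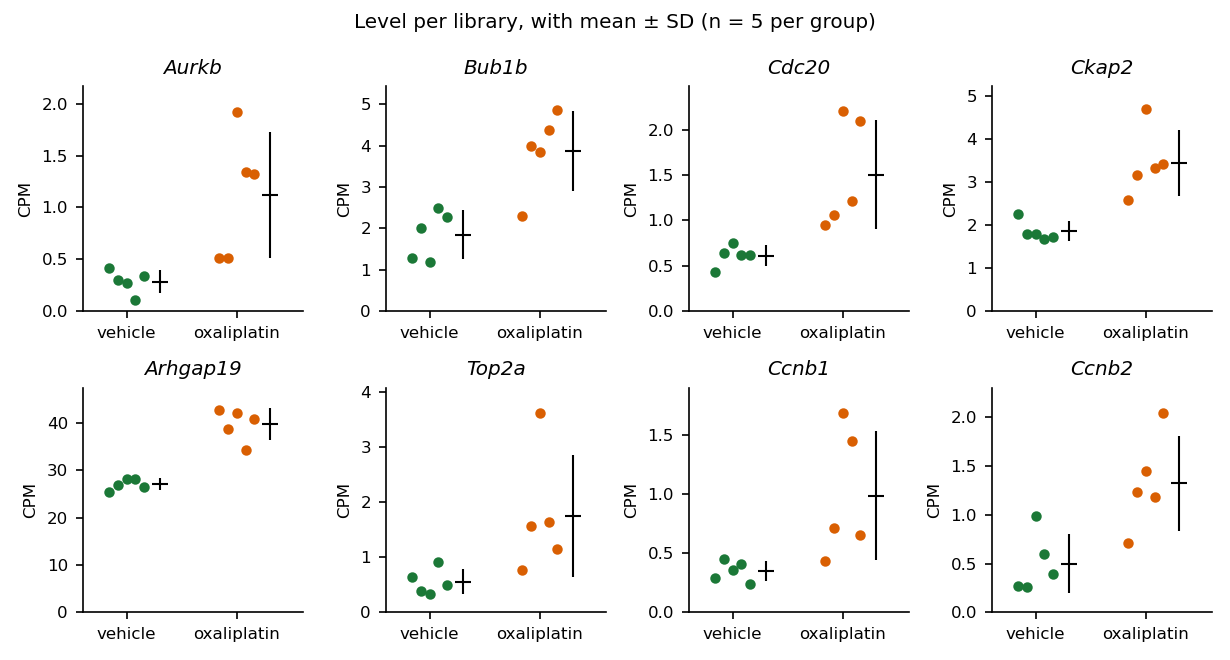
Level in CPM (vertical axis from 0) of the 6 genes that rose and of Ccnb1 and Ccnb2 in each vehicle and oxaliplatin library, with mean ± SD to the right (n = 5 per group). All oxaliplatin points lie above all vehicle points for Aurkb, Cdc20, Ckap2 and Arhgap19, and replicate 3 is highest for Aurkb (1.92 CPM) and Top2a (3.61 CPM).

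Genes of anaphase and exit from mitosis, listed with Cdca3 of mitotic entry, lay above 0 in 4 of 4 cases, with 1 called. Cdc20 (ENSMUSG00000006398), which activates the anaphase-promoting complex, stood at 0.944, 1.06, 2.21, 1.21 and 2.10 CPM in oxaliplatin replicates 1 to 5. In the vehicle replicates it stood at 0.434, 0.636, 0.751, 0.612 and 0.615 CPM, below every oxaliplatin library. The rise was 2.46-fold (1.30 ± 0.29, edgeR adjusted p = 0.0289). Exons of Cdc20 and Elovl1 overlap by 53 bases on opposite strands in GENCODE M21, and Elovl1, at 145 CPM after oxaliplatin and 146 CPM after vehicle, was at 0.00 ± 0.13. Ube2c, which loads ubiquitin onto the targets of that complex, was at 1.05 ± 0.40 (edgeR adjusted p = 0.188). Cdca3, a trigger of mitotic entry, was at 0.60 ± 0.19 without overlap between the groups (edgeR adjusted p = 0.125), and Espl1, the protease separase, was at 0.12 ± 0.22.

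Genes of the centromere and of the passenger complex had 0 of 5 called (0 at an unadjusted p below 0.05 as well, and 0 in DESeq2 and limma voom). Among all tested genes edgeR called 1.27% higher and 0.772% lower. Birc5 (survivin) and Cdca8 (borealin) code for partners of Aurkb in the passenger complex. Birc5 stood at 3.51 ± 0.733 CPM after oxaliplatin and 3.98 ± 1.05 CPM after vehicle, and Cdca8 at 3.52 ± 0.72 and 4.27 ± 0.723 CPM. Their log2 fold changes of -0.18 ± 0.20 and -0.28 ± 0.17 stand beside 1.97 ± 0.43 for Aurkb. The difference between these genes was not tested. Cenpa, the centromere histone, was at 0.51 ± 0.27, Cenpe, a kinetochore motor, at 0.11 ± 0.29 and Cenpf at -0.34 ± 0.38.

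Spindle and cytokinesis genes lay above 0 in 7 of 7 cases, and 2 were called. Arhgap19 (ENSMUSG00000025154), which turns off RhoA during cytokinesis, stood at 42.7, 38.7, 42.2, 34.4 and 40.8 CPM in oxaliplatin replicates 1 to 5 and at 25.4, 26.9, 28.3, 28.3 and 26.5 CPM in the vehicle replicates. The lowest oxaliplatin library was above the highest vehicle library, and the rise was 1.47-fold (0.55 ± 0.08, edgeR adjusted p = 0.00215). Ckap2 (ENSMUSG00000037725), a protein of spindle microtubules, stood at 2.59, 3.16, 4.70, 3.34 and 3.42 CPM after oxaliplatin and at 2.26, 1.80, 1.79, 1.68 and 1.73 CPM after vehicle. It rose 1.86-fold without overlap (0.89 ± 0.18, edgeR adjusted p = 0.0193).

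The other 5 spindle and cytokinesis genes were not called. Anln, the scaffold of the contractile ring, was at 10.2 ± 0.744 CPM after oxaliplatin and 8.41 ± 0.863 CPM after vehicle (0.28 ± 0.10, edgeR adjusted p = 0.178). Ect2, which activates RhoA where the cell will cleave, was at 0.61 ± 0.30, and Nusap1, which bundles spindle microtubules, at 0.59 ± 0.34. Tpx2, the activator of Aurka, was at 0.21 ± 0.20 and Prc1, which crosslinks the central spindle, at 0.11 ± 0.19. Exons of Prc1, Nusap1, Plk1, Cdca8, Ccne2 and Tk1 overlap other genes on the opposite strand, and since no source states the strand of counting, reads of the pair may be mixed.

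Of the common markers of proliferation, Top2a rose and Mki67 was not called. Top2a (ENSMUSG00000020914), which untangles sister DNA, stood at 0.762, 1.57, 3.61, 1.63 and 1.15 CPM in oxaliplatin replicates 1 to 5 and at 0.633, 0.393, 0.340, 0.918 and 0.503 CPM in the vehicle replicates. Oxaliplatin replicate 1 lay within the vehicle range and replicate 3 was the highest. The rise was 3.12-fold (1.64 ± 0.39, edgeR adjusted p = 0.0431). Leaving out replicate 3 gave 1.19 (edgeR adjusted p = 0.0894), and limma voom did not call it (adjusted p = 0.0989). Mki67, the gene of the Ki-67 antigen, was at 0.889, 0.872, 2.17, 0.872 and 0.968 CPM after oxaliplatin and 0.501 to 1.03 CPM after vehicle. Apart from replicate 3, the Mki67 values of the drug group lay within the vehicle range (0.55 ± 0.31, edgeR adjusted p = 0.41).

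The 6 genes that control entry into replication had 0 called, where edgeR called 1.27% of all tested genes higher and 0.772% lower. DESeq2 and limma voom called 0 as well, and 1 gene was lower at an unadjusted p below 0.05, as were 7.8% of all genes. That 1 was E2f1, an activator of replication genes, at 21.2, 27.7, 25.6, 21.7 and 21.4 CPM in oxaliplatin replicates 1 to 5 and 25.8, 24.5, 30.7, 29.6 and 27.4 CPM in the vehicle replicates. The groups overlapped (-0.23 ± 0.10, edgeR adjusted p = 0.242). E2f2 was at -0.06 ± 0.15, and the cyclin E genes Ccne1 and Ccne2 at -0.18 ± 0.14 and 0.13 ± 0.16. Foxm1 and Mybl2, the factors that switch on mitosis genes through CHR promoters, were at 0.20 ± 0.31 and 0.21 ± 0.48, at mean levels under 1 CPM in both groups.

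Replication genes had 0 of 13 called, with 2 higher and 1 lower at an unadjusted p below 0.05 and 0 in DESeq2 and limma voom. Over all tested genes edgeR called 1.27% higher and 0.772% lower, so 0 of 13 is close to the share of all genes. At an unadjusted p below 0.05 the shares were 8.51% and 7.8%. All 6 subunits of the Mcm helicase lay above 0, from 0.08 ± 0.12 (Mcm2) to 0.32 ± 0.15 (Mcm3). Mcm7 stood at 16.1, 13.2, 17.6, 15.7 and 19.1 CPM in oxaliplatin replicates 1 to 5 and at 11.3, 13.8, 14.7, 13.7 and 12.7 CPM in the vehicle replicates, with 4 drug libraries above all vehicle libraries (0.30 ± 0.11, edgeR adjusted p = 0.163). Its exons overlap those of Cops6 and Ap4m1 on the opposite strand. Mcm3 was at 4.51 ± 0.803 CPM after oxaliplatin and 3.62 ± 0.239 CPM after vehicle (edgeR adjusted p = 0.298), and Mcm4, Mcm5 and Mcm6 were at 0.10 ± 0.09, 0.21 ± 0.12 and 0.09 ± 0.12.

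The clamp and the loading factors stayed near 0. Pcna (ENSMUSG00000027342) stood at 46.1, 46.8, 44.5, 47.4 and 44.8 CPM after oxaliplatin and at 44.7, 45.8, 49.0, 46.6 and 47.6 CPM after vehicle. These ranges overlapped almost wholly, and the log2 fold change of -0.03 ± 0.06 had the smallest SE of the 48 genes. The pseudogene Pcna-ps2 was counted at 1.35 and 1.51 CPM. Cdc6 and Cdt1 were both at -0.01, with SE of 0.38 and 0.26.

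Genes of nucleotide supply included the lowest value of the replication genes. Tk1 (ENSMUSG00000025574), the thymidine kinase of S phase, stood at 4.90, 3.88, 5.32, 4.93 and 2.5 CPM in oxaliplatin replicates 1 to 5 and at 6.51, 5.76, 5.19, 5.78 and 8.18 CPM in the vehicle replicates. Only oxaliplatin replicate 3 reached into the vehicle range, and the change was -0.55 ± 0.19 (edgeR adjusted p = 0.15). Rrm1 and Rrm2, the subunits of ribonucleotide reductase, were at 0.18 ± 0.10 and 0.37 ± 0.22, and Tyms, the thymidylate synthase, at 0.12 ± 0.11. Rrm2 was highest in oxaliplatin replicate 3, at 4.50 CPM, and at 1.87 to 3.04 CPM in the other drug libraries.

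Library by library, the median of the 29 mitosis genes was above the vehicle range in every oxaliplatin sample, and that of the 13 replication genes in 4 of 5. The shift of a library is the median, over the genes, of log2 CPM minus the vehicle mean, so vehicle values lie near 0 by construction. For mitosis genes it was 0.23, 0.48, 0.69, 0.80 and 0.52 in oxaliplatin replicates 1 to 5 and -0.09 to 0.08 after vehicle. For replication genes it was 0.02, 0.18, 0.21, 0.13 and 0.15 after oxaliplatin and -0.06 to 0.06 after vehicle, and replicate 1 lay within the vehicle range. The mitosis shift exceeded the replication shift by 0.21 to 0.67 in the drug libraries and by -0.03 to 0.11 in the vehicle libraries. No test was run on these list values. Oxaliplatin replicate 3 was the highest library for 11 of 29 mitosis genes and vehicle replicate 5 for 5. Mitosis genes above all vehicle libraries numbered 9 in replicate 1 and 13 to 18 in the other drug libraries.

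**Figure D4:**
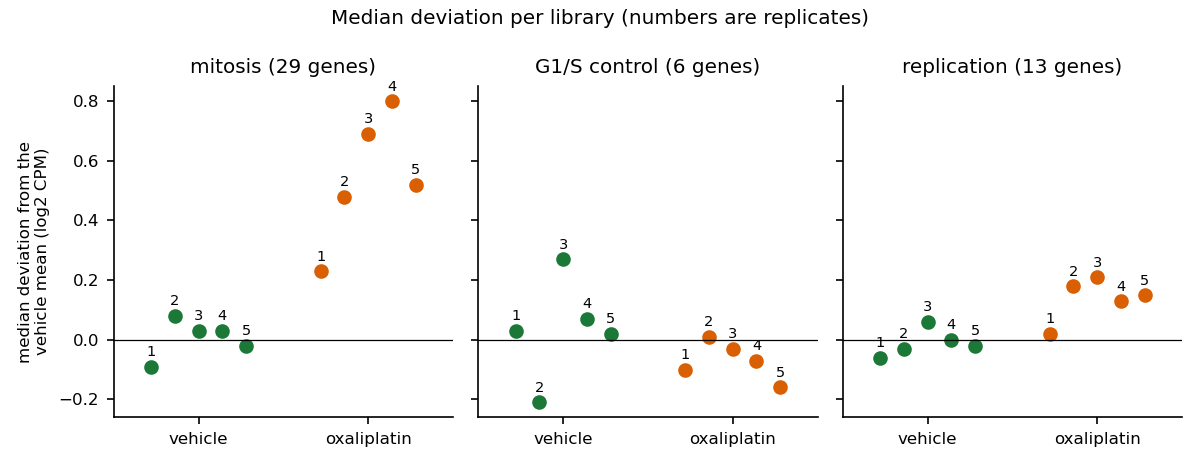
Median deviation from the vehicle mean (log2 CPM, vertical axis) in each library for 29 mitosis, 6 G1/S control and 13 replication genes, with replicate numbers beside the points. Oxaliplatin libraries lie at 0.23 to 0.80 for mitosis genes, at -0.16 to 0.01 for control genes and at 0.02 to 0.21 for replication genes.

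Mitosis genes were also the rarer transcripts, which sets how well each was measured. Per kilobase of exon, the median vehicle level was 0.262 CPM for mitosis genes (0.0592 for Ccna2 to 5.31 for Arhgap19) and 1.26 CPM for replication genes (0.128 for Cdc6 to 19.5 for Pcna). A mean below 2 CPM was found for 19 of 29 mitosis and 2 of 13 replication genes, and the median SE of the log2 fold change was 0.28 and 0.12. With a filter of at least 1 CPM in 5 libraries, 17 mitosis and 12 replication genes were tested, 3 were called higher (Bub1b, Ckap2 and Arhgap19), and the medians were 0.51 and 0.12. Lengths came from GENCODE M21, which may not be the annotation the counts were made with.

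**Figure D5:**
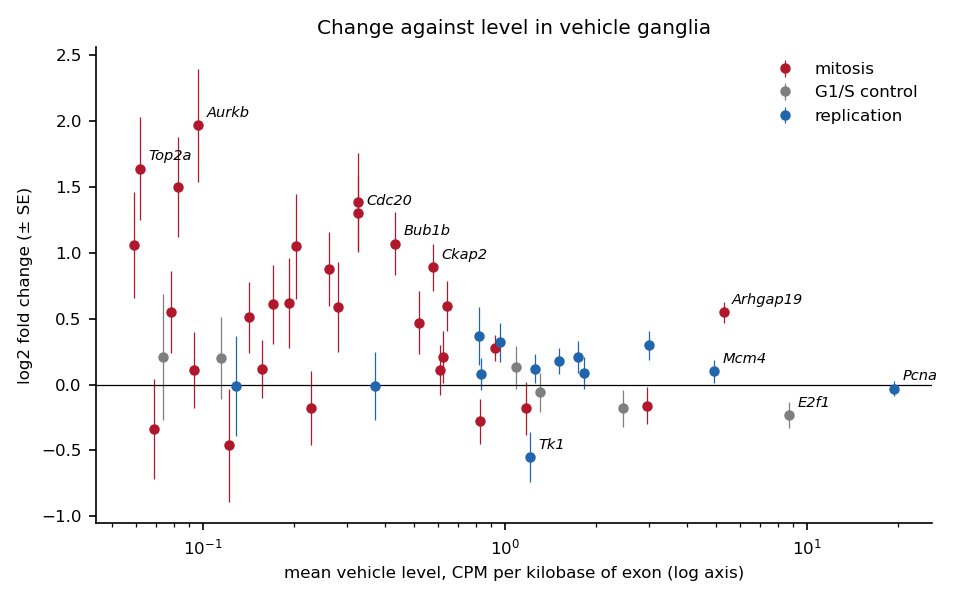
Log2 fold change (± SE, vertical axis) against the mean vehicle level in CPM per kilobase of exon (log axis) for the 48 genes. Mitosis genes with large changes sit at low levels, and Pcna, at 19.5 CPM per kilobase, lies at -0.03.

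Other genes of the same pathways were read from lists of mitosis and replication genes outside the 48. Of 55 tested mitosis genes 5 rose and 0 were called lower (1 lower in DESeq2 and in limma voom), at a median of 0.22. The 5 are 9.09% of them, where 1.27% of all genes were called higher by edgeR. Their shift by library was -0.02, 0.25, 0.44, 0.17 and 0.19 in oxaliplatin replicates 1 to 5 and -0.09 to 0.03 after vehicle, so replicate 1 lay within the vehicle range. Gtse1, a p53 target of G2 phase, rose from 1.31 ± 0.446 to 4.50 ± 0.517 CPM, and Psrc1, a spindle gene that p53 also controls, 3.16-fold (1.66 ± 0.29, edgeR adjusted p = 0.01). The condensin genes Ncaph (2.68-fold, edgeR adjusted p = 0.0119) and Ncapd2 (1.35-fold, edgeR adjusted p = 0.0403) and the kinetochore gene Spc25 (2.04-fold, edgeR adjusted p = 0.0253) rose as well. Gtse1, Psrc1 and Ncaph kept their calls in all 10 fits without a library, Spc25 in 7 and Ncapd2 in 1. The count was 3 without oxaliplatin replicate 5, vehicle replicate 1 or vehicle replicate 4.

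Of 47 other tested replication genes 0 were called (1 higher in DESeq2 and in limma voom), and the median was 0.04. At an unadjusted p below 0.05, 7 were higher and 1 lower, where 8.51% and 7.8% of all genes were. The polymerase gene Pole was at 0.79 ± 0.22 (edgeR adjusted p = 0.0813), and Rpa1, which coats single-stranded DNA, at 0.21 ± 0.08 (edgeR adjusted p = 0.176).

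Of 21 G1 regulators 3 rose (14.3%, where 1.27% of all genes did) and 9 lay below 0, at a median of 0.05. Those that rose were the p53 targets Ccng1 (1.51-fold, edgeR adjusted p = 0.00443) and Cdkn1a, the p21 gene (1.83-fold, from 119 ± 30.0 to 219 ± 25.0 CPM, edgeR adjusted p = 0.0193), and the CDK inhibitor gene Cdkn1c (1.94-fold, edgeR adjusted p = 0.0155). Every oxaliplatin library was above every vehicle library for each of these 3. Ccng1 kept its call in all 10 fits without a library, Cdkn1c in 8 and Cdkn1a in 6, and without oxaliplatin replicate 4 or 5 the count was 1. Of 17 Rb, E2F and DREAM genes 1 rose (5.88%), Mybl1 (2.08-fold, 1.06 ± 0.23, edgeR adjusted p = 0.025), a relative of Mybl2. It lost the call without oxaliplatin replicate 1, 4 or 5 or vehicle replicate 1, without oxaliplatin replicate 1 and vehicle replicate 5 together, and with 1 surrogate variable.

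Which cells of the ganglion held the mitosis transcripts was not measured, and in bulk tissue more cells of a type and more RNA per cell cannot be told apart. Endothelial markers were summed at 85.6 to 95.6 CPM after oxaliplatin and 61.8 to 89.3 CPM after vehicle, with 2 of 9 called higher (Pecam1 and Cdh5). Pericyte markers were at 169 to 242 and 143 to 171 CPM, with 2 of 8 called higher (Kcnj8 and Abcc9), and fibroblast markers at 919 to 1160 and 776 to 998 CPM, with 1 of 8 (Pdgfra). Of 9 Schwann cell markers 1 was called higher (Drp2), at summed levels of 8380 to 11300 and 7630 to 10400 CPM. Satellite glia markers were at 2020 to 2300 and 2240 to 2410 CPM, with Glul called higher and Fabp7 lower. Of 12 neuron markers 0 were called higher and 1 lower (Nefh, -0.63 ± 0.13, edgeR adjusted p = 0.04), and 8 lay below 0. Among all tested genes 1.27% were called higher and 0.772% lower by edgeR. No marker in these lists was at 0. Their part in the mitosis result was not tested.

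Cells of blood and bone marrow divide often, and their markers varied between libraries. Neutrophil and marrow markers were summed at 13.2 to 67.1 CPM after oxaliplatin and 11.8 to 73.9 CPM after vehicle, with 0 of 10 tested markers called by edgeR or past an unadjusted p below 0.05 and 3 to 5 libraries at 0 for Ctsg and Fcnb. Erythroid markers ran from 10.0 to 698 CPM and from 138 to 439 CPM, with 0 of 7 tested called by edgeR or past an unadjusted p below 0.05. Oxaliplatin replicate 3, the highest library for more mitosis genes than any other, was also the highest for erythroid markers. It had the highest marrow level of the drug group as well, at 67.1 CPM, with 13.2 to 49.7 CPM in the other drug libraries. The part of replicate 3 in the result was not tested beyond leaving it out. In that fit the mitosis median was 0.53, and of the 6 called genes only Ckap2 and Arhgap19 kept their calls. Oxaliplatin replicate 2 had the lowest erythroid and the lowest marrow level of the drug group, and its mitosis shift was 0.48. Lymphocyte markers were at 20.0 to 67.4 and 61 to 95.1 CPM and macrophage markers at 62.1 to 88.1 and 56.7 to 100 CPM, with Cx3cr1 called lower. Cd8a and Ms4a1 were at 0 in 4 libraries each, and for Ms4a1 these were all oxaliplatin libraries (0 to 2 counts, with 4 to 20 after vehicle). Of 7 tested lymphocyte markers 0 were called, 5 lay below 0 and 2 above. The B cell marker Cd79b was lower in every oxaliplatin library than in any vehicle library (-2.17 ± 0.56, edgeR adjusted p = 0.0578), as were 1.77% of all genes. Muscle markers were at 723 CPM in oxaliplatin replicate 1, at 9.61 to 24.2 CPM in the other 4 drug libraries and at 96.8 to 479 CPM after vehicle, so those 4 lay below every vehicle library. Adipocyte markers were at 691 CPM in oxaliplatin replicate 1, at 16.9 to 47.9 CPM in the other drug libraries and at 8.38 to 34.7 CPM after vehicle. The part of muscle and fat RNA in the result was not tested beyond leaving out libraries. Without oxaliplatin replicate 1 and vehicle replicate 5 the same 6 mitosis genes were called, at a median of 0.52. The libraries in that fit had muscle markers at 9.61 to 24.2 CPM after oxaliplatin and 150 to 479 CPM after vehicle. It kept the groups apart in muscle markers, so it cannot test the part of muscle RNA.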

How the data were processed

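Total RNA of mouse dorsal root ganglia was sequenced in 10 samples, 5 oxaliplatin and 5 vehicle, grouped by the labels' titles. Libraries came from a SMARTer kit, per the labels' protocols. The deposited values are raw read counts per gene; the submitters' processing notes name STAR 2.5.1a, Partek and DESeq2 without roles, and the build, annotation and strand are not stated there, in the labels or in the file. Of 40757 rows, 276 repeats of an ID were dropped, and 40254 of 40481 IDs are in the GENCODE M21 name table. Totals ran from 52963470 to 60984426 counts, so 10 counts are about 0.162 CPM or more. All pairs of libraries in a group differed by more than sampling noise (chi-square over its degrees of freedom, 12.7 to 53.5).

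All genes passing filterByExpr (18401) were tested with edgeR 4.0.16 in R 4.3.3 (TMM, robust quasi-likelihood, Benjamini-Hochberg over all genes, threshold 0.05); the pipeline was tested on simulated data. SE is the log2 fold change over the root of F. Levels in CPM were scaled by the TMM factors, with a prior count of 2 on the log2 scale. Alternatives were RLE or no composition factors, no filter or 1 CPM in 5 libraries, DESeq2 1.42.0, limma 3.58.1 (voom, weighted by sample quality), a replicate block, a fit with 1 surrogate variable (sva 3.50.0), calls at adjusted p below 0.1, and fits without a library. The members and lists were chosen with earlier results of these data known, so their counts are descriptions and not independent evidence. The naming rule took called genes and those of smallest p, 16 mitosis, 4 control and 8 replication genes. The other members are described for completeness, and which genes have values by library was chosen after their values were seen.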

Additional observations from a re-analysis of the deposited data

Results flagged for a closer look

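Single libraries stood apart from the others of their group for 3 of 62 sets of 5 values examined, where chance gives about 1 in 20. Ckap2 was at 2.26 CPM in vehicle replicate 1 and at 1.68 to 1.80 CPM in the other vehicle libraries. For Ccna2, oxaliplatin replicate 1 was low, at 0.254 CPM, with the rest of its group between 0.547 and 0.598 CPM. Ube2c was at 1.11 CPM in vehicle replicate 3 and at 0.262 to 0.447 CPM in the other vehicle libraries. The exons of Ube2c overlap those of Tnnc2, a muscle gene on the opposite strand, which had 27 counts in that library and 19 to 100 in the other vehicle libraries.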

How the results depend on the processing

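The count of higher mitosis and replication genes was 5 to 9 under RLE factors, no composition factor, no filter, DESeq2, limma voom, the replicate block (7), 1 surrogate variable (5) and a threshold of 0.1, and 0 were lower in each. It was 3 with the stricter filter, under which Aurkb, Cdc20 and Top2a were not tested, and 1 to 7 when a library was left out. The replication median was 0.09 to 0.18 in those fits, highest without oxaliplatin replicate 1, and the mitosis median 0.48 to 0.63. Of 524 refitted values of 28 named genes 484 kept their side of the threshold, 29 lost it, 11 gained it and 0 were reversed. Over all genes DESeq2 called 521 higher and 406 lower, limma voom 439 and 342 and the replicate block 382 and 278. For the other lists, in refits chosen after seeing the data, the Rb, E2F and DREAM genes had 2 higher in DESeq2, 0 with 1 surrogate variable, 0 without oxaliplatin replicate 1 and vehicle replicate 5 together and 0 to 1 without a library. G1 regulators had 1 to 3 higher and 0 to 2 lower without a library, and 1 lower with no filter, 2 in DESeq2, 1 in limma voom and 2 under the replicate block. The other mitosis genes had 3 to 6 higher and 0 to 1 lower without a library, and 1 lower with no filter, in DESeq2 and in limma voom. The other replication genes had 1 higher in DESeq2 and in limma voom and 0 to 1 without a library. The cause of these shifts was not tested. Whether replicate numbers pair the samples is not stated in the titles and could not be settled from 5 pairs. Same-numbered libraries correlated at -0.0234 to 0.191 in their deviations from the group means, and 2 of 5 correlated best with their own number. Under the replicate block Top2a lost its edgeR call (adjusted p = 0.0599), and Ccnb1 and Ccnb2 gained one (0.0487 and 0.0245). Low counts limit some genes, such as Ccna2 with 5 to 18 counts in a vehicle library, Aurkb with 6 to 23 and Mybl2 with 4 to 42 over all libraries.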

Other observations

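Some regulators outside the 48 genes, named after their values were seen, lay on the lower side. Of the mitosis genes 23 of 29 lay on the higher. The CDK inhibitor genes did not share a direction. Cdkn1a and Cdkn1c were called higher, and Cdkn1b (0.34 ± 0.12, edgeR adjusted p = 0.176) and Cdkn2c (0.32 ± 0.15, edgeR adjusted p = 0.302) lay above 0. Cdkn2a lay at -0.26 ± 0.42. Cdkn3, a phosphatase of Cdk1 and Cdk2, was lower in every oxaliplatin library than in any vehicle library, at 5.89 and 8.61 CPM (-0.55 ± 0.15, edgeR adjusted p = 0.0631), and groups without overlap on the lower side were found for 1.77% of all genes. Cdkn2d, the CDK4 and CDK6 inhibitor p19, was at 196 ± 5.01 CPM after oxaliplatin and 223 ± 13.8 CPM after vehicle, also without overlap (-0.19 ± 0.05, edgeR adjusted p = 0.0932). Cdkn2b, the inhibitor p15, lay lower in 4 of 5 oxaliplatin libraries than in any vehicle library (-0.68 ± 0.18, edgeR adjusted p = 0.0675). The edgeR calls of Cdkn3, Cdkn2b and Cdkn2d depended on the fit. Without the expression filter edgeR called Cdkn3 (adjusted p = 0.0416) and Cdkn2b (adjusted p = 0.0471). DESeq2 called all 3 (adjusted p = 0.00969 for Cdkn3, 0.0119 for Cdkn2b and 0.0388 for Cdkn2d) and limma voom Cdkn3 (0.0315) and Cdkn2b (0.0283). With the replicate block edgeR called Cdkn2b (adjusted p = 0.031) and Cdkn2d (adjusted p = 0.0499), and leaving out oxaliplatin replicate 2 gave calls for Cdkn3 (0.0462) and Cdkn2b (0.0193).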
